A study of Mus musculus with 2 samples.

Results

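The genes described here are 9 small leucine-rich proteoglycans: Dcn (decorin), Bgn (biglycan), Aspn (asporin), Lum (lumican), Fmod (fibromodulin), Prelp (PRELP, named for its end rich in proline and arginine), Kera (keratocan), Omd (osteomodulin) and Ogn (osteoglycin). They were chosen by symbol and were 9 of the 28625 gene symbols in the files, each held by 1 row. Their transcripts were counted in single cells from a shin muscle, the tibialis anterior, of young C57B/6 mice (12 weeks, standard chow). The muscle was digested with protease and its cells were captured in droplets with 10x 3′ v2 chemistry, which tags each captured transcript with a unique molecular identifier (UMI). Control muscle gave the uninjured library. The injured library was made from muscle collected 24 hours (1 day) after 1.2% barium chloride, a salt that makes muscle fibres degenerate, had been injected into it. Since the labels of both libraries carry the treatment, they leave unsaid whether control muscle was injected, and they give no number of mice. The matrices held 22994502 UMIs in 5581 uninjured and 39014762 UMIs in 4489 injured barcodes, of which 5139 and 4260 were kept as cells. The comparison asks how these transcripts differed between cell classes and between the libraries. Each group being 1 library, differences had no replicate check and were not tested, and the 95% intervals given show counting error alone.

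Small leucine-rich proteoglycans are secreted proteins whose curved leucine-rich repeats bind collagen fibrils and set how wide the fibrils grow and how they are spaced. Class I (decorin, biglycan, asporin) and class II (lumican, fibromodulin, keratocan, osteomodulin, PRELP) differ in their repeats and in the chondroitin, dermatan or keratan sulphate chains that many of them carry, and osteoglycin belongs to class III. In muscle and tendon they are made mostly by interstitial fibroblasts and tendon cells, decorin is known to bind TGF-beta, and biglycan freed from the matrix is a known ligand of TLR2 and TLR4.

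Cells were clustered without these 9 genes, and clusters were named from marker lists that hold none of them. Fibro-adipogenic progenitor-like (FAP-like) cells, the interstitial fibroblasts of muscle, numbered 774 uninjured and 421 injured, and tenocyte-like (tendon) cells 443 and 155. Different clusters held them in the 2 libraries. Uninjured FAP-like cells lay in cluster 7 (455 cells, led by Myoc, Smoc2 and Itm2a), cluster 16 (252, Mrgprg, Smpd3 and Pi16) and cluster 25 (64, Sbspon, Col9a2 and Apod), and 402 of the injured ones in cluster 10, led by the inflammation-related genes Cxcl5, Il1rl1 and Mmp3. Uninjured tenocyte-like cells lay in cluster 14 (283, Wif1, Chad and Cilp2 among its leading genes) and cluster 18 (158, Col22a1 and Ptx4), and all 155 injured ones in cluster 19 (Thbs4, Angptl7 and Lox). The summed level of the 15 FAP markers was 44369 CPM (UMIs per 1000000 UMIs of the class) in uninjured and 6662 CPM in injured FAP-like cells, all 15 detected in both. The sum of the 10 tenocyte markers was 20046 and 17669 CPM in tenocyte-like cells, again with all detected. Single markers could differ from this sum: Chad stood at 2832 CPM uninjured and 223 CPM injured, while Thbs4 led injured cluster 19. Monocyte and macrophage markers summed to 55.4 and 209.7 CPM in FAP-like cells (10 and 12 of 12 detected) and to 35.2 and 243 CPM in tenocyte-like cells (7 and 12 of 12), and their part in the results was not tested. Median UMIs per cell were 3903 uninjured and 13574 injured in FAP-like and 4565 and 11074 in tenocyte-like cells. Xist had 16575 UMIs uninjured and 0 injured, and Y-linked genes 0 and 4456, so sex and injury cannot be told apart; Bgn lies on the X chromosome. The libraries shared 33 cell barcodes, 0.591% of the uninjured and 0.735% of the injured.

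In the mm10 build (positions from GENCODE M21) 8 of the 9 genes lie in 3 groups of neighbours. Dcn (chr10:97479609-97518143), Lum (chr10:97565128-97572703) and Kera (chr10:97606879-97613692) follow each other on the plus strand of chromosome 10, and Aspn (chr13:49544443-49567565), Omd (chr13:49582462-49592822) and Ogn (chr13:49608046-49624501) on that of chromosome 13, inside Cenpp on the opposite strand. Prelp (chr1:133910304-133921414, minus strand) and Fmod (chr1:134037254-134048277, plus strand) lie on chromosome 1, and Prelp overlaps the antisense gene Gm15851. Bgn stands alone at chrX:73483602-73495933. The values below differ within each group: Lum and Kera, neighbours on chromosome 10, peaked in different cell classes.

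The RefSeq start-site windows (GRCm38.p6, 250 bases before to 50 after the start) of 4 members are shown because their levels contrast: Bgn lay near its uninjured level in injured FAP-like cells, Aspn was among the lowest against its uninjured level there, and Fmod and Kera were nearly confined to tenocyte-like cells. Capitals mark matches, on either strand, to the TATA box TATAAA, the GC box GGGCGG and the AP-1 site TGANTCA, which 13.6%, 35.7% and 7.81% of the 32851 windows of this length hold. All 4 windows are on the plus strand, at chrX:73483351-73483650, chr13:49544193-49544492, chr1:134037004-134037303 and chr10:97606955-97607254. The Kera window lies wholly inside the Kera gene as placed above, so its RefSeq start differs from the GENCODE M21 start.
Bgn: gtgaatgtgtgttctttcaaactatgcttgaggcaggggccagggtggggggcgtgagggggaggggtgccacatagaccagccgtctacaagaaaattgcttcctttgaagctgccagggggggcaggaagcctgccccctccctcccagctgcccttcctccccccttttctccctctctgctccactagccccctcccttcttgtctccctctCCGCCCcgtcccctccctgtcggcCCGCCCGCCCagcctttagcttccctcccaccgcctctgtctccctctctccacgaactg
Aspn: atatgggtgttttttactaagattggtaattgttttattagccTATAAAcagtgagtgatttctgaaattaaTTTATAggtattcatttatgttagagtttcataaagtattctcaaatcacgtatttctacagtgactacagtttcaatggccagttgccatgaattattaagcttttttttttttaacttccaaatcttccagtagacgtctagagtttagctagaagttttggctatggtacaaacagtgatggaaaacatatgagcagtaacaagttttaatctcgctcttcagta
Fmod: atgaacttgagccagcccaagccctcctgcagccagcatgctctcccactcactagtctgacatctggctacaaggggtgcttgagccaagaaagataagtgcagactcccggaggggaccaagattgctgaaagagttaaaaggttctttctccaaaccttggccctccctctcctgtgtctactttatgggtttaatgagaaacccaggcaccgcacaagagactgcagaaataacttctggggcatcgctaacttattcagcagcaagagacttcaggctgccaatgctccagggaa
Kera: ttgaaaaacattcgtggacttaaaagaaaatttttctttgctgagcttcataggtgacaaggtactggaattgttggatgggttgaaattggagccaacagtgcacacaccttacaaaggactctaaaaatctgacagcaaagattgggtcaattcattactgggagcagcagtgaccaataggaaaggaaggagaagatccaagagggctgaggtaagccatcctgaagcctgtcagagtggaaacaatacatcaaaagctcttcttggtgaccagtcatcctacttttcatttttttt
The Bgn window held 3 GC boxes, the last 2 overlapping, and no TATA box, with 63.7% G and C against a median of 52.7% over all windows. That of Aspn held 2 TATA boxes and 31% G and C, and those of Fmod (51.0%) and Kera (41.0%) held none of the 3 motifs. Windows were found for 7 members, not for Dcn and Lum. Of the other 3, Ogn held 2 overlapping TATA boxes, and Prelp and Omd none of the motifs. A match is a description of letters only.

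In uninjured muscle the 9 genes together took 2.26% of the UMIs of FAP-like cells and 4.79% of those of tenocyte-like cells, against 0.0188% in monocyte- and macrophage-like cells. One UMI stands for 1 captured 3′ end whatever the length of the transcript, so CPM is compared between genes without a length correction. Free RNA in droplets can give UMIs to any cell. Dcn, the most abundant member, stood at 102 CPM in uninjured and 21.3 CPM in injured monocyte- and macrophage-like cells. The other 8 members lay there between 0 and 22.4 CPM uninjured and 0 and 6.21 CPM injured. These values served as the background, although macrophages are known to make biglycan, and the part of their own transcripts in the value of Bgn was not tested. The 41 uninjured T or NK-like cells had 175 CPM of Dcn, so the background was not the same in every class.

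**Figure D1:**
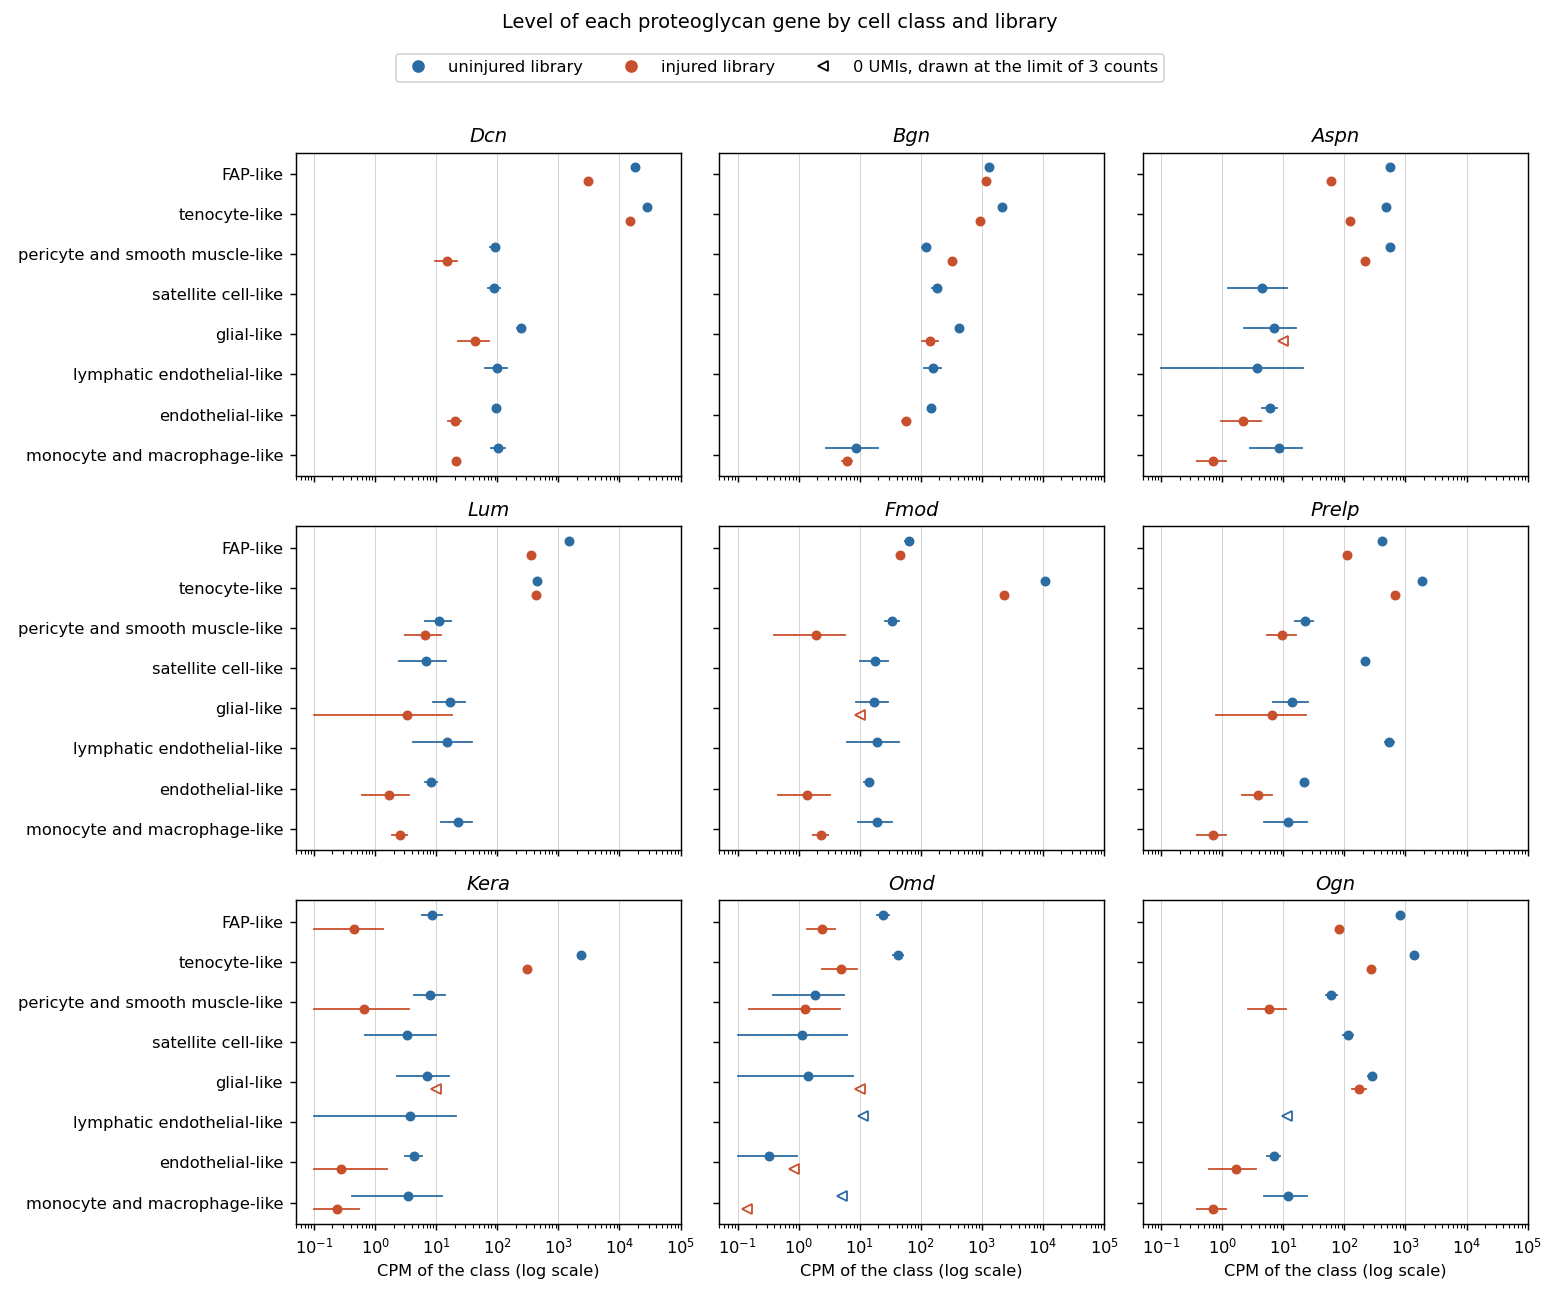
Level of each of the 9 genes in CPM (log axis) by cell class, blue for the uninjured and orange for the injured library, with 95% counting intervals, drawn only as far as the left edge of the axis; open triangles mark 0 UMIs at the limit of 3 counts, and classes under 50 cells in a library are not drawn. Dcn, Lum and Ogn are highest in FAP-like and tenocyte-like cells, Prelp in tenocyte-like and then lymphatic endothelial-like cells, Fmod and Kera in tenocyte-like cells alone, and Aspn is as high in pericyte and smooth muscle-like cells of the uninjured library as in FAP-like cells.

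Of class I, Dcn reached 28257 CPM (28043 to 28473) in uninjured tenocyte-like and 17945 CPM (17802 to 18089) in uninjured FAP-like cells. These 2 classes held 51.2% and 46.3% of all Dcn UMIs of the library, and the next class with 50 cells or more, muscle fibre-like cells, had 486 CPM. Glial-like cells had 248 CPM, but 85 of their 177 Dcn UMIs lay in a single cell, and 16.4% of the cells held any. Endothelial-like (96.3 CPM), pericyte and smooth muscle-like (91.0) and satellite cell-like cells (89.6) were at or below the background level. Bgn stood at 2156 CPM (2097 to 2216) in tenocyte-like and 1288 CPM (1249.7 to 1327) in FAP-like cells and was the member found most widely outside them. It measured 422 CPM (376 to 472) in glial-like cells, 181 CPM in satellite cell-like, 147 in endothelial-like and 119.5 in pericyte and smooth muscle-like cells, all above the 8.63 CPM of monocyte- and macrophage-like cells. Aspn, which binds collagen and is named for a run of aspartates, had 3 sources of similar level. It measured 558 CPM (522 to 596) in pericyte and smooth muscle-like, 553 CPM (528 to 579) in FAP-like and 481 CPM (453 to 509) in tenocyte-like cells; the first 2 intervals overlap and the third lies below both. Glial-like, satellite cell-like and endothelial-like cells had 4.48 to 7.01 CPM of Aspn, within its background interval of 2.80 to 20.1 CPM.

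Of class II, Lum was the member most confined to FAP-like cells, which held 80.7% of its uninjured UMIs at 1475 CPM (1435 to 1517), with 441 CPM (414 to 468) in tenocyte-like cells. Fmod, which binds collagen I and shapes tendon fibrils, and Kera, known from the cornea and tendon, were nearly restricted to tenocyte-like cells, where 98.2% of Fmod and 98.2% of Kera UMIs lay. Fmod measured 10915 CPM (10782 to 11049) there against 63.1 CPM (54.9 to 72.2) in FAP-like cells, and Kera 2341 CPM (2279.5 to 2403) against 8.64 CPM (5.78 to 12.4). The second FAP-like value is within the background interval of Kera, 0.418 to 12.5 CPM. Prelp, a basement membrane and matrix anchor, had the broadest spread of the class: 1857 CPM (1803 to 1913) in tenocyte-like, 545 CPM (460.2 to 642) in the 51 lymphatic endothelial-like, 415 CPM (394 to 438) in FAP-like and 222 CPM (192 to 255) in satellite cell-like cells. A Prelp UMI was found in 78.4% of the lymphatic endothelial-like cells, which also had Bgn at 158 CPM and the other 7 members at or near background. Omd, known from bone, was the scarcest member with 194 UMIs in the uninjured library, 100 in tenocyte-like (42.4 CPM) and 82 in FAP-like cells (24.4 CPM).

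Ogn, the class III member, measured 1366 CPM (1319.7 to 1414) in tenocyte-like and 804 CPM (774 to 835) in FAP-like cells, 286 CPM (248 to 328) in glial-like and 115 CPM (94.1 to 139.9) in satellite cell-like cells. Within the glial-like class it and Bgn lay in different clusters. Ogn reached 631 CPM (547 to 724) in cluster 20, with Ncmap and Mbp among its leading genes, where 67.9% of 106 cells held a UMI. Bgn reached 827 CPM (731 to 932) in cluster 22, led by Col20a1, Bche and Lgi4, with a UMI in 82.1% of 117 cells. Bgn in cluster 20 was 37.7 CPM and Ogn in cluster 22 3.07 CPM. In the endothelial-like class, 971 of 1369 Bgn UMIs came from cluster 11, with Selp, Ackr1 and Vwf among its leading genes, where Bgn stood at 674 CPM (633 to 718) and Prelp at 86.8 CPM (72.3 to 103).

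Uninjured FAP-like clusters differed in their proteoglycans. Dcn was 21887 CPM in cluster 7, 9320.2 in cluster 16 and 23359.8 in cluster 25. Bgn was 1807, 533 and 449 CPM, so highest in cluster 7. Aspn was ordered otherwise, with 891 CPM in the Pi16-marked cluster 16, 451 in cluster 7 and 44.5 in cluster 25. Lum was 3181 CPM in cluster 25, 1748 in cluster 7 and 544 in cluster 16, and Ogn 74.2, 939 and 750.2 CPM in the same order. Cluster 25 thus combined the highest Lum with the lowest Aspn and Ogn of the 3. Its 64 cells are few, but the intervals of these 3 genes do not meet those of the other clusters.

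The uninjured tenocyte-like clusters differed by member as well. Cluster 14 was higher in Dcn (35803 against 12877 CPM in cluster 18), Fmod (13822 against 4930.1), Prelp (2461 against 609) and Lum (527 against 266). Cluster 18, led by the myotendinous junction collagen Col22a1, was higher in Aspn (725 against 348 CPM). Kera (2264 and 2534 CPM in clusters 14 and 18), Bgn (2049 and 2394) and Ogn (1292 and 1523) lay closer together. Kera and Fmod, alike in their restriction to tenocyte-like cells, thus parted between these 2 clusters. Since the clusters were made from all other variable genes, these are descriptions.

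In FAP-like cells 7 of the 9 members were lower in the injured library by at least 2-fold, 0 were higher by 2-fold, and Bgn and Fmod lay within 2-fold. All 9 had the 20 UMIs over both libraries that were required. By the same rule 28.3% of all 11319 genes with that many UMIs were lower and 15.3% higher. The median log2 ratio of injured over uninjured was −2.56 for the members and −0.27 for all these genes. Of all measured genes, 7.29% had a lower ratio than Dcn, and for Kera, Omd, Ogn and Aspn the shares were 1.25% to 4.44%.

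Among class I genes, Dcn stood at 17945 CPM in uninjured and 3039.7 CPM in injured FAP-like cells, which is 5.90-fold lower (95% interval 5.81 to 6.00). Aspn stood at 553 and 61.3 CPM, 9.02-fold lower (8.09 to 10.1). Bgn stood apart from both: it measured 1288 CPM uninjured and 1165 CPM injured, 1.11-fold lower (1.06 to 1.15). The direction of Bgn depended on which uninjured cluster was compared. Against cluster 7 alone (1807 CPM) its log2 ratio was −0.63, and against cluster 16 alone (533 CPM) it was 1.13. FAP-like cells held 37.4% of the uninjured and 73.3% of the injured library's Bgn UMIs, shares that also move with the cells caught in each library.

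Among class II genes, Lum stood at 1475 and 358 CPM in uninjured and injured FAP-like cells, 4.13-fold lower (3.93 to 4.34). Prelp stood at 415 and 110.3 CPM, 3.76-fold lower (3.44 to 4.12). These were the smallest differences of the 7, and against cluster 16 alone Lum, at 544 CPM uninjured, lost its 2-fold call while the other 6 remained lower. Omd (82 and 16 UMIs, 24.4 and 2.43 CPM) was 10.0-fold lower (5.82 to 18.4). Kera was close to background in both libraries, with 29 and 3 UMIs, and 18.9-fold lower (5.86 to 97.1). Fmod measured 63.1 and 45.3 CPM, but 173 of its 298 injured UMIs came from the 19 injured cells outside cluster 10. In the 402 cells of cluster 10 Fmod was 19.4 CPM, and with no doublet removal its log2 ratio was −2.37 in place of −0.48, past the 2-fold limit. Ogn, of class III, stood at 804 and 81.7 CPM, 9.84-fold lower (8.97 to 10.8).

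**Figure D2:**
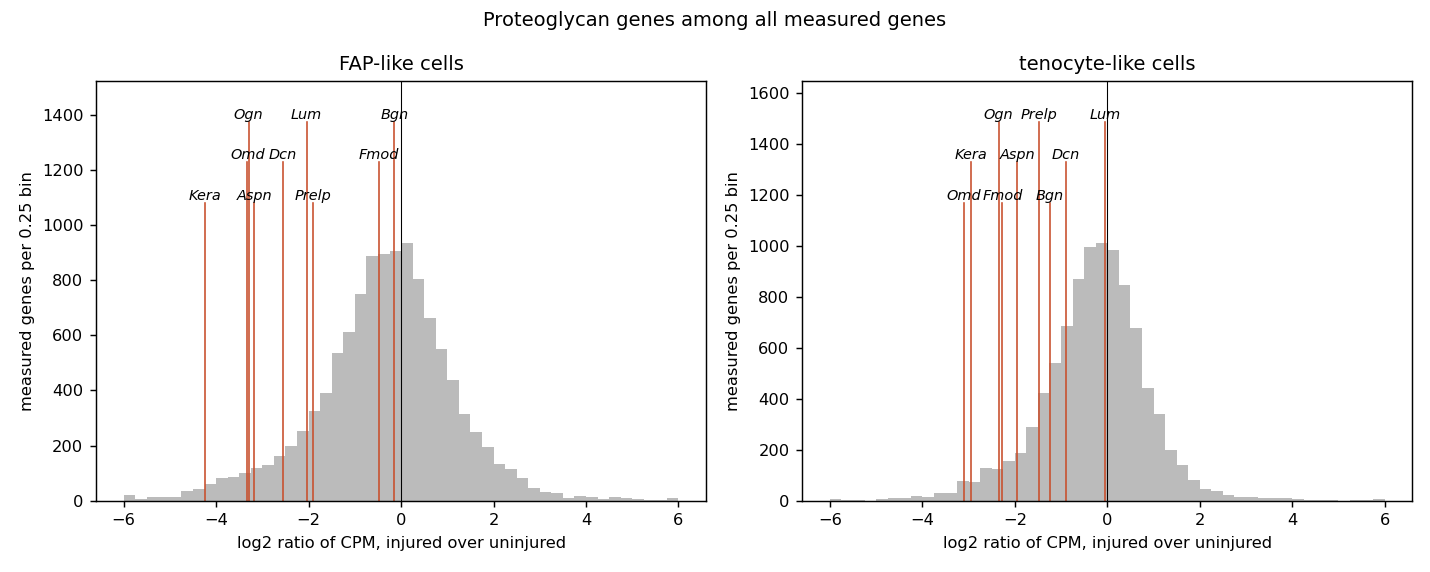
Number of genes per bin of the log2 ratio of CPM, injured over uninjured, among genes with 20 UMIs or more, in FAP-like (left) and tenocyte-like cells (right); orange lines mark the 9 members, and genes past 6 in either direction are counted in the outer bins. Only Bgn and Fmod on the left and Lum on the right lie near the centre; Dcn on the right lies at −0.90.

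The 19 injured FAP-like cells outside cluster 10, which clustered with uninjured cells, held other levels than the 402 inside it. Their Dcn was 14568 CPM against 2801 in cluster 10, their Aspn 744 against 47.2, and their Ogn 894 against 64.9. Their Fmod was 1299.8 CPM, above the 63.1 CPM of uninjured FAP-like cells. Bgn differed least, at 1510.1 against 1158 CPM. With the injured cells of cluster 10 only, all 7 members remained at least 2-fold lower.

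For Dcn, Ogn, Aspn and Lum the share of cells with a UMI was also lower in the injured library when every cell was thinned to 1500 UMIs, a depth all cells reached. A Dcn UMI was then found in 99.7% of uninjured and 80.8% of injured FAP-like cells (99.9% and 98.3% unthinned), against 9.42% and 2.95% of monocyte- and macrophage-like cells (median 3782 and 7064 UMIs). Ogn was found in 60.5% and 12.1% (75.6% and 35.9% unthinned), Aspn in 39.9% and 9.50% (60.1% and 25.9%), and Lum in 66.7% and 29.9% (82.7% and 75.1%). Bgn and Fmod were not lower. Bgn was found in 65.1% and 72.9% (77.3% and 96.0% unthinned) and Fmod in 4.78% and 4.99% (9.30% and 9.50%). In the monocyte- and macrophage-like cells no member but Dcn passed 2.17% after thinning.

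Per cell the picture was different, as injured FAP-like cells held more UMIs each. Dcn averaged 77.8 UMIs per uninjured and 47.5 per injured FAP-like cell, Lum 6.40 and 5.58, and Prelp 1.80 and 1.72. Bgn averaged 5.59 and 18.2 UMIs per cell. On this scale 4 members (Aspn, Kera, Omd and Ogn) were at least 2-fold lower, and 2 (Bgn and Fmod) at least 2-fold higher. The median log2 ratio of all genes was then 1.58, itself past 2-fold. Fmod, at 1.37, lay below that median and Bgn, at 1.70, above it. Shares of all genes called at 2-fold were not computed on this scale. More RNA per injured cell and deeper sequencing of the injured library cannot be told apart here.

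**Figure D3:**
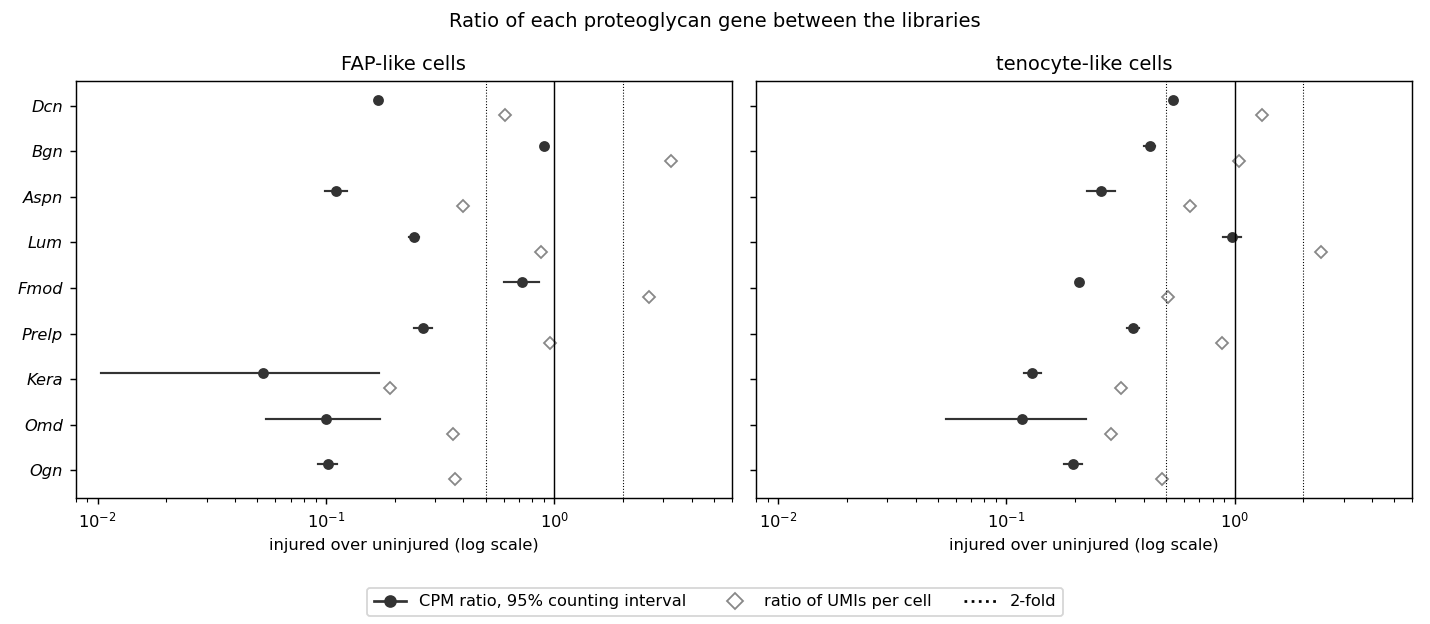
Ratio of injured over uninjured (log axis) for each member in FAP-like (left) and tenocyte-like cells (right), as CPM with its 95% counting interval (filled) and as UMIs per cell (open diamonds); dotted lines mark 2-fold. On the CPM scale 7 members lie left of the lower dotted line in each class, and on the per-cell scale 4 (FAP-like) and 3 (tenocyte-like) do. The median log2 ratio of all genes on the per-cell scale was 1.58 (FAP-like) and 1.07 (tenocyte-like).

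In tenocyte-like cells 7 of the 9 members were likewise at least 2-fold lower and 0 were 2-fold higher, against 22.3% and 10.0% of the 9633 genes with 20 UMIs or more, among which were all 9. The median log2 ratio was −1.95 for the members and −0.23 for all genes. The 2 members within 2-fold were Dcn and Lum, not Bgn and Fmod as in FAP-like cells. Whether a member's ratio differed between the classes was not tested.

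Class I in tenocyte-like cells ran as follows. Dcn stood at 28257 CPM uninjured and 15134 CPM injured, 1.87-fold lower (1.84 to 1.89), and remained the most abundant member in both. Bgn stood at 2156 and 914 CPM, 2.36-fold lower (2.24 to 2.49). Aspn stood at 481 and 125 CPM, 3.86-fold lower (3.36 to 4.44). Dcn was thus lower by less than 2-fold, and its direction depended on the uninjured cluster: against cluster 18 alone (12877 CPM) it was higher in the injured library (log2 ratio 0.23), and against cluster 14 alone (35803 CPM) lower (−1.24). In class II Kera, the most lowered member with over 100 UMIs in each library, had 5518 UMIs in 443 cells (2341 CPM) and 615 UMIs in 155 cells (304 CPM), 7.70-fold lower (7.08 to 8.38). Fmod stood at 10915 and 2266 CPM, 4.82-fold lower (4.67 to 4.97). Prelp stood at 1857 and 667 CPM, 2.79-fold lower (2.62 to 2.96). Both tendon-restricted members were thus lower than Prelp against their uninjured levels. Lum was the only member whose interval held equality: 441 and 429 CPM, 1.03-fold lower (0.938 to 1.13). Omd (100 and 10 UMIs) was 8.58-fold lower (4.48 to 18.4), and Ogn, at 1366 and 268 CPM, 5.10-fold lower (4.65 to 5.59).

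After thinning, Kera was found in 77.7% of uninjured and 25.8% of injured tenocyte-like cells (86.0% and 54.2% unthinned) and Fmod in 99.1% and 71.0% (100% and 93.5%). Dcn was found in 99.8% and 98.1%. The other tenocyte ratios also depended on the uninjured cluster. Against cluster 18 alone Prelp had 609 CPM uninjured and 667 injured, so that its 2-fold call ended, while the other 6 members remained at least 2-fold lower; against cluster 14 alone all 7 did. Lum had a log2 ratio of 0.69 against cluster 18 and −0.30 against cluster 14. Per cell, Dcn averaged 150.4 UMIs uninjured and 197 injured, Fmod 58.1 and 29.6, and Kera 12.5 and 3.97. On that scale only Kera, Omd and Ogn were at least 2-fold lower, and Lum was at least 2-fold higher (log2 ratio 1.25). The median log2 ratio of all genes was 1.07, itself past 2-fold, and shares of all genes were not computed.

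The make-up of the proteoglycan transcripts differed with these ratios. Dcn was 79.6% of all member UMIs in uninjured cluster 7 and 62.0% in injured cluster 10, while Bgn was 6.58% and 25.6%. In tenocyte-like cells Dcn was 61.1% in cluster 14, 49.7% in cluster 18 and 75.3% in injured cluster 19, and Fmod 23.6%, 19% and 11.3%. Kera was 3.86% of the member UMIs in cluster 14, 9.77% in cluster 18 and 1.51% in cluster 19. The 9 genes together took 0.486% of all UMIs of injured FAP-like and 2.01% of injured tenocyte-like cells. In the libraries as a whole they took 0.960% and 0.206% of UMIs, a figure that also moves with the cells caught, 2878 of 4260 injured cells being monocyte- and macrophage-like.

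**Figure D4:**
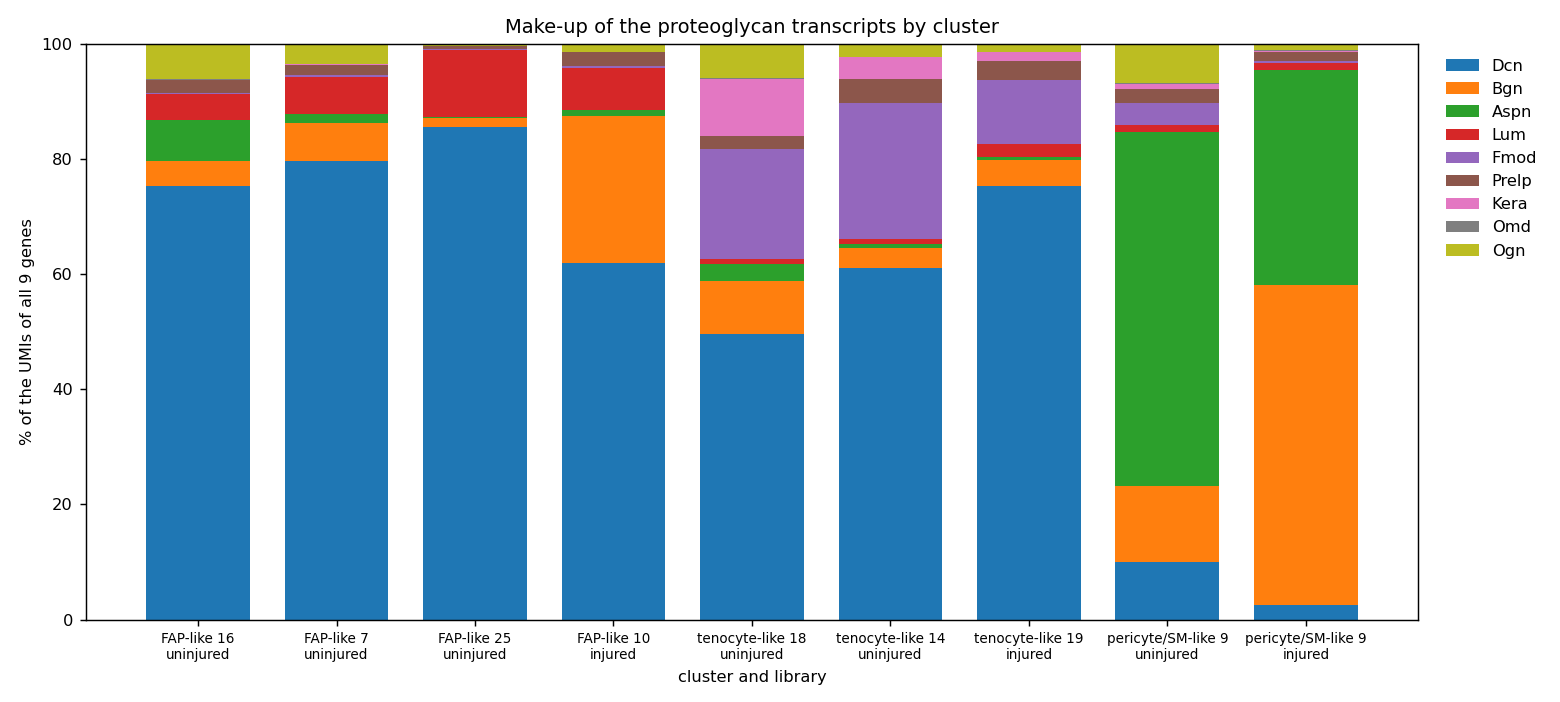
Share of each member among the UMIs of all 9 genes (%, stacked bars) in the FAP-like, tenocyte-like and pericyte and smooth muscle-like clusters with 50 cells or more in the library shown. Dcn makes up most of each FAP-like bar, Bgn takes 25.6% in injured cluster 10, Fmod and Kera appear in the tenocyte-like bars, and Aspn and Bgn dominate cluster 9.

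In pericyte and smooth muscle-like cells (cluster 9, 303 uninjured and 141 injured) Bgn was higher in the injured library and Aspn lower. Of 9562 genes measured there, 16.4% were 2-fold lower and 8.68% higher. Aspn stood at 558 CPM uninjured and 214 CPM injured, 2.61-fold lower (2.29 to 2.96). Bgn stood at 119.5 and 319 CPM, 2.67-fold higher (2.25 to 3.17), with a UMI in 31.0% and 73.0% of cells (14.9% and 32.6% after thinning). The cluster also held all 10 endothelial markers, which summed to 5521 CPM uninjured and 3500.5 CPM injured. In its 79 uninjured and 43 injured cells with no UMI of Pecam1, Cdh5 or Kdr, Bgn stood at 320.4 and 542 CPM, 1.69-fold higher (1.29 to 2.22), which ends the 2-fold call. Aspn in the same cells stood at 930.1 and 311 CPM, 2.99-fold lower. As UMIs per cell of the whole class Aspn averaged 2.97 and 2.35, within 2-fold. Ogn in the class came from 99 and 9 UMIs (61.3 and 5.81 CPM), with 98.99% of the uninjured UMIs in the 10% of cells that held most. Dcn, Fmod, Lum and Kera were at or near the background there.

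In endothelial-like cells (2690 uninjured, 455 injured) Bgn was the member farthest above background, at 147 and 56.5 CPM, 2.60-fold lower (2.24 to 3.03); 20.2% of 11239 genes were 2-fold lower and 10.5% higher. The log2 ratio of Bgn after thinning to 1500 UMIs was −0.76 in place of −1.38, and as UMIs per cell −0.19, which both end the 2-fold call. Most uninjured cells of the class lay in clusters 2, 3 and 4 and 339 injured ones in cluster 12. Within cluster 11 (348 and 56 cells) Bgn stood at 674 and 187 CPM, 3.60-fold lower (2.94 to 4.44). Its rate was also lower in cluster 12 (5 of 115388 UMIs uninjured, 32 of 2635015 injured). In cluster 4 (604 and 31 cells) it was higher in the injured library, with 301 of 2339728 and 65 of 215305 UMIs. Prelp in cluster 11 stood at 86.8 and 14.1 CPM from 125 and 8 UMIs. In glial-like cells (250 and 52) 21.7% of 6139 genes were 2-fold lower and 8.54% higher. Bgn was 422 and 142 CPM there, or 1.20 and 0.827 UMIs per cell, which is within 2-fold, and its main source, cluster 22, held 117 uninjured and 5 injured cells. Ogn was 286 and 176 CPM in the class, within 2-fold. In cluster 20 Ogn was 631 CPM in 106 uninjured and 199.9 CPM in 46 injured cells. Bgn in cluster 20 ran against its class value, with a higher rate in the injured library. It rested on few counts there, 12 of 318588 UMIs uninjured and 23 of 265084 injured.

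Across 28 sums of a cluster in a library with 50 cells or more, levels of the members on the log2(CPM + 10) scale were correlated as a description. The points share their library, depth and free RNA, and several come from 1 class. Fmod and Kera were most alike (Pearson r 0.97), followed by Dcn and Lum (0.95), and Lum and Kera least (0.50). Outside the set, among 10664 genes with 200 UMIs or more, Dcn was most like Serpinf1 (0.97), Fbln1 (0.96) and Myoc (0.95). Bgn was most like P3h3 (0.90), Cnpy2 (0.89) and P3h4 (0.89), of which P3h3 and P3h4 belong to the collagen prolyl 3-hydroxylase family. Aspn was nearest to collagen VI chains. It was most like Col6a3 (0.94), Nfatc4 (0.93) and Col6a2 (0.93). Lum was most like Smoc2 (0.95), Dnm1 (0.94) and Emx2 (0.94), and Prelp like Abi3bp (0.92), Nfix (0.91) and Tmem45a (0.91). Fmod was most like Chad (0.98), Tnmd (0.98) and Mkx (0.96), and Kera like Mkx (0.99), Chad (0.97) and Cilp2 (0.97). Smoc2, Chad, Tnmd, Mkx and Cilp2 were among the markers that named the clusters. Omd was most like Ssc5d (0.94), Pcsk5 (0.92) and Igsf10 (0.92), and Ogn like Plekhf1 (0.95), Irs1 (0.91) and Olfml2b (0.91).

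Collagens that form or join the fibrils the members bind, and the crosslinking enzyme Lox, made up a list of 15 genes. Of these, 13 were measured in FAP-like cells, 11 at least 2-fold lower and 1 higher (median log2 ratio −2.67). In tenocyte-like cells 14 of 15 were lower and 1 higher (median −2.28). Of all measured genes, 28.3% were lower and 15.3% higher in FAP-like cells, and 22.3% and 10.0% in tenocyte-like cells. Col14a1, a fibril-associated collagen, stood at 488 and 36.7 CPM in uninjured and injured FAP-like cells, and Lox, the gene that was higher in both classes, at 71.5 and 163 CPM there and 558 and 2182 CPM in tenocyte-like cells. In pericyte and smooth muscle-like cells 0 of 10 were lower and 1 higher, against 16.4% and 8.68% of all measured genes there. The higher gene was Col5a3, at 40.3 and 103 CPM. Among 11 other genes of the leucine-rich proteoglycan kind, 3 of 7 measured were lower and 1 higher in FAP-like cells, and 3 and 1 of 6 in tenocyte-like cells. Ecm2, a matrix protein with leucine-rich repeats, stood at 158 and 11.3 CPM in FAP-like cells, and Chad, the matrix protein chondroadherin, at 2832 and 223 CPM in tenocyte-like cells.

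Enzymes that build the sugar chains were called in shares near those of all measured genes, though each list was short. Those shares were 28.3% lower and 15.3% higher in FAP-like cells, and 22.3% and 10.0% in tenocyte-like cells. Of 23 genes for the linker and for chondroitin or dermatan sulphate, 6 of 20 measured were lower and 2 higher in FAP-like cells (median −0.44), and 3 and 1 of 18 in tenocyte-like cells (median −0.33). Csgalnact1, which starts chondroitin chains, was 6.35-fold higher in FAP-like cells (13.4 and 85.1 CPM) and 4.45-fold in tenocyte-like cells (9.33 and 41.5 CPM). Chpf, a chondroitin polymerising factor, stood at 200.2 and 39.6 CPM in tenocyte-like cells. Of 11 keratan sulphate genes, 2 of 7 were lower and 1 higher in FAP-like cells, and 2 and 0 of 6 in tenocyte-like cells.

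Of 15 proteases and helpers known to cut members, 6 of 11 were lower and 3 higher in FAP-like cells, and 4 and 1 of 9 in tenocyte-like cells. The shares over all measured genes were 28.3% lower and 15.3% higher in FAP-like cells, and 22.3% and 10.0% in tenocyte-like cells. Mmp3, stromelysin, stood at 116 and 269 CPM in FAP-like and 8.91 and 529 CPM in tenocyte-like cells, and was among the leading genes of cluster 10. Bmp1, which processes the biglycan precursor, stood at 172 and 36.4 CPM in FAP-like and 9.91 and 31.6 CPM in pericyte and smooth muscle-like cells. Of 22 receptors and growth factors that members bind, 8 of 18 were lower and 3 higher in FAP-like cells, and 8 and 1 of 19 in tenocyte-like cells. In FAP-like cells the lowest ratios were those of Kdr, also an endothelial marker (37.8 and 1.67 CPM, 22.6-fold lower), and Bmp4 (38.4 and 5.33 CPM, 7.21-fold lower). The highest were those of Cd44, 4.98-fold higher (56.9 and 283 CPM), and Cd14, a co-receptor of TLR2 and TLR4, 3.60-fold higher (6.25 and 22.5 CPM). Monocytes and macrophages also express Cd44 and Cd14. The sum of their 12 markers in FAP-like cells was 55.4 CPM uninjured and 209.7 CPM injured, and its part in these values was not tested.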

How the data were processed

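Single-cell 3′ libraries of mouse muscle were used, grouped by sample title. Per the submitters' processing notes, the authors used Cell Ranger 2.1.1 and the mm10 build, and deposited raw UMI counts per gene and barcode, without normalization; no source used here gives the annotation release. The members, marker lists and gene lists were chosen with earlier results of these data known.

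Barcodes with fewer than 200 genes (178 uninjured, 64 injured) or over 20% mitochondrial UMIs (18 and 4) were dropped. Scrublet's own threshold marked 1 barcode per library and so had not worked; the highest-scoring 249 and 161 barcodes (0.8% per 1000 barcodes) were dropped in its place, and remaining doublets can carry transcripts of other classes. Counts, scaled to 10000 per cell and logged, were clustered from 2000 variable genes after removal of the 9 members (30 components, 15 neighbours, Leiden resolution 1, seed 0) with scanpy 1.11.5 and leidenalg 0.10.2 in Python 3.11.15. Of 16 marker lists, the one with the highest share of markers present (in 20% of a cluster's cells, 2 times the median over clusters) named each of 30 clusters, unless another lineage led its 10 top genes; under 3 present markers gave no name. This naming rule was set after seeing the data. Monocyte- and macrophage-like cells were not compared between libraries, since 1 of their clusters led with a dendritic marker and none of its own.

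UMIs were summed per class and library. Poisson intervals were exact, shares had exact binomial (Clopper-Pearson) intervals, and ratios exact conditional binomial intervals (scipy 1.17.1). A difference was called at 2-fold with 20 UMIs over both libraries; counts under 3 were raised to 3 for the call. All members were named, with the 3 genes most like each and, per gene list and class, from the 2 highest and 2 lowest ratios. Promoter windows came from RefSeq by symbol. The calls were also run on simulated Poisson counts with planted changes. These hold no variation between cells or libraries, so they cannot check error from that source. Alternatives covered doublets, clustering, naming, scaling, thinning and background.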

Additional observations from a re-analysis of the deposited data

Results flagged for a closer look

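The log2 ratio of Bgn, injured over uninjured, was 1.41 in pericyte and smooth muscle-like cells and −1.24 in tenocyte-like, −1.38 in endothelial-like and −1.57 in glial-like cells. The opposite directions of these class values drew attention to it. The differences between the first value and the others were 2.65 (tenocyte-like), 2.79 (endothelial-like) and 2.98 (glial-like). With 1 library per group these differences were not tested. Within the classes the direction of Bgn was not uniform. Its rate was higher in the injured library in glial-like cluster 20 (12 of 318588 UMIs uninjured, 23 of 265084 injured). The same held for endothelial-like cluster 4 (301 of 2339728 and 65 of 215305). In endothelial-like clusters 11 and 12 it was lower. Endothelial markers in the pericyte and smooth muscle-like cells summed to 5521 CPM uninjured and 3500.5 CPM injured. In cells there without a UMI of Pecam1, Cdh5 or Kdr the Bgn ratio was 0.76 (log2).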

How the results depend on the processing

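Under the 13 alternatives listed at the outset all 7 lower calls in FAP-like and all 7 in tenocyte-like cells kept their direction and 2-fold size. One of the 13, a minimum of 1 UMI, leaves each ratio unchanged and so could not end a call. Alternatives added after seeing the data, UMIs per cell and comparisons with single clusters, moved some of these. As UMIs per cell, 4 members were lower and 2 higher in FAP-like and 3 lower and 1 higher in tenocyte-like cells, where the log2 ratio of Bgn became 0.0545. The medians of all genes on that scale, 1.58 and 1.07, were themselves past 2-fold. In other classes, alternatives listed at the outset also ended calls. Of 8 lower calls in endothelial-like cells, 4 were kept with every cell thinned to 1500 UMIs, where that of Bgn ended. With each library clustered alone 3 were kept, and with the monocyte and macrophage rate subtracted 2. Of 6 calls in pericyte and smooth muscle-like cells, 4 were kept with that rate subtracted. Against uninjured cluster 16 alone, 6 of the 7 FAP-like calls were kept and 1 member, Bgn, was higher; against cluster 18 alone, 6 of the 7 tenocyte-like calls were kept and Prelp became 0.13. When cells were named one by one from marker scores, also listed at the outset, Bgn in pericyte and smooth muscle-like cells was 0.89, under 2-fold. In endothelial-like cells, with few member UMIs, Dcn became 0.10 and Fmod 0.80 with each library clustered alone, and Aspn 2.24 and Ogn 1.59 with the monocyte and macrophage rate subtracted; the cause was not tested. Without haemoglobin, mitochondrial and ribosomal protein genes in the total, the median of all genes moved from −0.27 to −0.01 in FAP-like and from −0.23 to 0.01 in tenocyte-like cells. Glial-like cells at resolution 0.5 gave no value, with under 50 injured cells. No paired analysis was possible because each group was 1 library. Members with few UMIs (Omd, and Kera outside tenocyte-like cells) are limited by counting.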

Other observations

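Perineurial-like cells, which sheathe nerve bundles, were too few to compare (27 uninjured, 7 injured) but carried several members at fibroblast-like levels. Dcn stood at 12972 CPM (12345 to 13622) uninjured and 9753 CPM (9061 to 10484) injured, Ogn at 702 CPM (562 to 866) and 517 CPM (368 to 707), and Bgn at 540.5 CPM (419 to 686) and 729 CPM (549 to 949). Prelp stood at 274 CPM (189.9 to 383) and 265 CPM (162 to 409). Kera had 0 UMIs in both libraries, Aspn 2 and 0, and Lum 5 and 1. These cells thus differed from uninjured FAP-like cells as a whole in holding Dcn and Ogn with hardly any Aspn or Lum. Aspn was also low in FAP-like clusters 25 (uninjured) and 10 (injured). Omd, with 4 and 7 UMIs (32.3 and 92.8 CPM), rests on few counts.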
